A study of Mus musculus with 24 samples.

Results

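The genes described here are 10 antioxidant genes that the transcription factor NRF2 is known for controlling, Nfe2l2 itself and its textbook targets Hmox1, Nqo1, Gclm, Gclc, Txnrd1, Srxn1, Slc7a11, Gsr and Prdx1. They were taken from the 54532 genes of the expression table by symbol, by a rule that uses no measured value. The list was nevertheless chosen with earlier results of these data known. All 10 passed the filter on low values in every comparison. Their RNA was followed in 24 polyA libraries that form 8 groups of 3, from mouse macrophages cultured out of bone marrow in L929-conditioned medium (BMDMs) and from dendritic cells cultured out of bone marrow in GM-CSF plus IL-4 (BMDCs). All donor mice carried floxed Tmem173, the gene of the innate sensor STING, and all received tamoxifen. The WT groups came from Tmem173fl/fl mice and the CRE groups from mice that also carried a tamoxifen-inducible Cre (Cre ert2) driven by the Lyz2 promoter, which is active in myeloid cells, so that cells in which the promoter is silent keep an intact gene. The DX groups were treated with the mouse STING agonist DMXAA, at 40 µM by the deposited description (the methods text gives a mass unit, so the concentration is uncertain), and the CT groups received none. For these libraries, the time of exposure and the age of the donors are not given in the sources used here.

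NRF2, the product of Nfe2l2, is held in the cytoplasm by the adaptor KEAP1, which directs its degradation. Electrophiles and oxidants modify KEAP1, NRF2 then accumulates, pairs with a small MAF protein and binds antioxidant response elements, while the repressor BACH1 competes for the same elements and is displaced by haem. The targets supply glutathione (cystine import by Slc7a11, ligation by Gclc and Gclm, recycling by Gsr), run the thioredoxin and peroxiredoxin cycle (Txnrd1, Srxn1, Prdx1) and clear haem and quinones (Hmox1, Nqo1). In macrophages and dendritic cells this programme is known for limiting oxidative damage during activation.

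The promoter windows below, from RefSeq (GRCm38.p6), are shown because Prdx1 and Slc7a11 were the members that rose with DMXAA and Gclm was among those that fell. Each line gives the 250 bases before the start site, 5′ to 3′ on the strand of the gene. Capitals mark matches to the core of the antioxidant response element, TGACNNNGC, or to an element bound by ATF4 and C/EBP factors, TGATGNAA, searched on both strands. The windows lie at chr4:116685349-116685598 on the plus strand for Prdx1, chr3:50443614-50443863 on the minus strand for Slc7a11 and chr3:122245307-122245556 on the plus strand for Gclm.
Prdx1: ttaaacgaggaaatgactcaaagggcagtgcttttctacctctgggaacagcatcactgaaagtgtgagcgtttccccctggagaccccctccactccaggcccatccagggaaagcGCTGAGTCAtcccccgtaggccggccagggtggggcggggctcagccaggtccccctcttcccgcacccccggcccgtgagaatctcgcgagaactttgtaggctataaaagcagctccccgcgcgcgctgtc
Slc7a11: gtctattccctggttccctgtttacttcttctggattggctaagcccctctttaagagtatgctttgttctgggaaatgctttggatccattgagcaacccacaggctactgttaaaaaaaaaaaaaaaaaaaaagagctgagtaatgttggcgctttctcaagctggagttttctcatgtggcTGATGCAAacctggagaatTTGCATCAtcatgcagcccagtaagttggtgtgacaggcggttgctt
Gclm: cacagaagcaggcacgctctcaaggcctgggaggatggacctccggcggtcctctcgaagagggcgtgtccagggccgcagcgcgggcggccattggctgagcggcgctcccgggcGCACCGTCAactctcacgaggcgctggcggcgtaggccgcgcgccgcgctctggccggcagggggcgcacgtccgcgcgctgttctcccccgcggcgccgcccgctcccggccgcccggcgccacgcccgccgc
Prdx1 and Gclm each held 1 antioxidant response element core, on the strand opposite to the gene, whereas Slc7a11 held 2 of the ATF4 and C/EBP elements and no antioxidant response element core in these letters. The Prdx1 element overlapped a match to the AP-1 site TGANTCA. Promoter windows were found for 7 of the 10 members, with 3 start sites for Txnrd1, and the element core was also present in windows of Nfe2l2, Txnrd1 and Srxn1. Over all 32851 windows (250 bases before and 50 after a start), 12.4% held the antioxidant response element core, 7.81% the AP-1 site and 3.97% the ATF4 and C/EBP element. These matches describe the letters and do not show binding.

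Library totals ranged from 15657347 to 18912887 counts. Levels are in FPKM, fragments scaled to gene length and to an effective library size, which was 0.687 to 1.33 times the total. Outside the BMDM libraries numbered 3, that size was below the total in each DMXAA library and above it in each control. Ratios of DMXAA over control are therefore larger in FPKM than on library totals. Tmem173, the targeted gene, was at 9.91 to 31.9 FPKM in WT BMDMs numbered 1 and 2. CRE BMDMs of those numbers were at 8.76 to 10.4 FPKM. The BMDM libraries numbered 3, described below, were at 16.3 and 20.9 FPKM in WT and at 11.6 and 15.1 FPKM in CRE. BMDCs were at 28.8 to 55.3 FPKM in WT and 19.7 to 36.9 FPKM in CRE. The genotype groups thus overlapped in both cell types over treatments. Under DMXAA, WT BMDMs numbered 1 and 2 were at 31.9 and 22.8 FPKM and CRE BMDMs at 9.12 and 10.1 FPKM. In bulk RNA, fewer cells of a type and less RNA per cell cannot be told apart. The 4 BMDM libraries numbered 3 lacked the markers of their label. In them the 6 pan-leukocyte markers summed to 0.389 to 1.75 CPM (counts scaled to library size alone), against 2930 to 3967 in the other 8 BMDM libraries, and the 8 fibroblast markers summed to 14810 to 23060 CPM against 37.8 to 656. Tests in BMDMs therefore used the 8 libraries numbered 1 and 2, and the libraries numbered 3 are given apart. Among those 8, the WT pair numbered 2 carried the fibroblast sums of 526 and 656 CPM (the other 6 were at 37.8 to 81.9), and the 2 CRE libraries of each treatment were closer to each other than any other pair (Pearson r across genes 0.997 for each pair, with a spread still above sampling noise). Among the BMDCs, CRE number 2 stood apart, with macrophage markers of 2064 and 2197 CPM against 6083 to 9113 in the other 10, and CRE number 1 was closer to WT number 3, and CRE number 3 to WT number 2, than to its own label. Nothing states whether the libraries of a group came from separate animals, so p-values measure the spread between these libraries only.

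DMXAA moved the 10 genes in different directions, and in WT BMDMs most of those that changed went down. There 5 members fell (Gclc, Gsr, Hmox1, Gclm, Txnrd1) and 1 rose (Prdx1), against 20.7% lower and 18.4% higher of the 11569 genes tested (edgeR quasi-likelihood test, Benjamini-Hochberg adjusted p under 0.05). The BMDM groups share an estimate of the spread for each gene. The CRE pairs (r = 0.997) were closer than the WT pairs (0.954 in controls and 0.965 with DMXAA). The SEs of the WT responses may therefore be too small, and those of the CRE responses too large. In CRE BMDMs none of the 10 passed (1 at an unadjusted p under 0.05, 0 by DESeq2), with 2.72% of genes lower and 7.28% higher. Because of the shared spread, the counts in WT and CRE do not by themselves show a difference between the genotypes. In WT BMDCs, 2 members rose (Slc7a11, Prdx1) and none fell, against 17.0% higher and 15.2% lower of 12126 genes. In CRE BMDCs Slc7a11 alone rose, against 14.0% higher and 11.4% lower. Both BMDC counts take no account of the pairing by library number, which is used in the next paragraph and adds falls. The median log2 fold change of the 10 was -0.62 in WT and -0.11 in CRE BMDMs, and -0.16 in WT and -0.11 in CRE BMDCs, beside medians over all genes tested of -0.08, -0.01, 0.01 and -0.01.

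The numbers of the BMDC libraries paired the control and DMXAA libraries within a genotype, and with each number of each genotype as a block more members passed. The block added falls of Hmox1, Gclm and Gclc in WT, giving 2 rises and 3 falls with 24.6% of genes higher and 24.2% lower, and added the rise of Prdx1 and falls of Gclm and Gclc in CRE, giving 2 rises and 2 falls with 21.7% higher and 21.0% lower. With all 12 BMDM libraries in the fit, no member passed in WT BMDMs, where 0% of 12379 genes were higher and 0% lower. When counts were scaled by library totals in place of TMM, the median of all genes shifted by -0.51 in WT and -0.23 in CRE BMDMs and by -0.36 in WT and -0.33 in CRE BMDCs, and the share of called genes that were higher fell from 47.1% to 20.4%, from 72.8% to 43.6%, from 52.7% to 26.4% and from 55.2% to 26.4%. The falls below are therefore larger, and the rises smaller, on that scale.

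**Figure D1:**
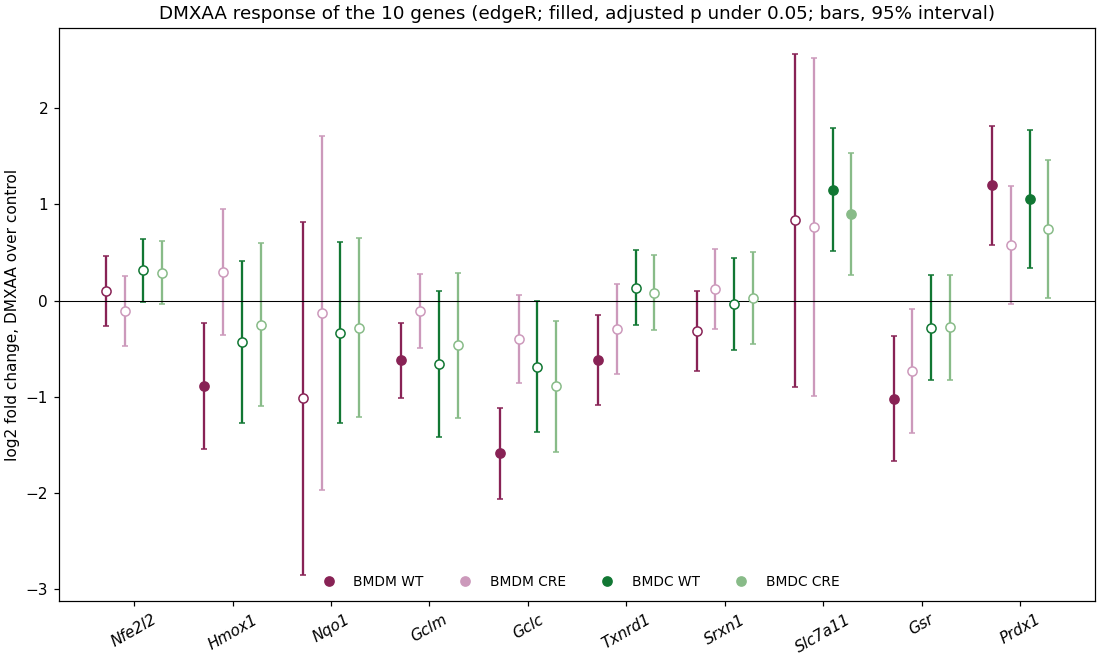
Log2 fold changes of the 10 genes with DMXAA (vertical axis) in WT and CRE BMDMs (libraries numbered 1 and 2) and BMDCs (3 libraries a group), with 95% intervals from the edgeR fit without the replicate block. Filled points passed an adjusted p of 0.05, and WT BMDMs hold 6 of them, 5 below and 1 above 0.

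Nfe2l2 (chromosome 2, 75675513 to 75704641, minus strand, GRCm38 throughout) encodes NRF2. Its RNA was at 54.9 and 71.5 FPKM in WT BMDMs numbered 1 and 2 and at 70.7 and 75.6 FPKM with DMXAA, and at 67.7 and 66.3 FPKM in CRE BMDMs and 62.0 and 64.2 FPKM with DMXAA. In BMDCs it was at 41.1, 42.1 and 43.8 FPKM in WT controls and 48.7, 62.2 and 49.4 FPKM with DMXAA, and at 41.9, 47.5 and 43.0 FPKM in CRE controls and 49.4, 51.7 and 63.6 FPKM with DMXAA. The treated BMDC libraries were all above their controls, yet the log2 fold changes of 0.31 ± 0.15 (SE) in WT (adjusted p = 0.14) and 0.29 ± 0.15 in CRE (adjusted p = 0.19) did not pass, and in BMDMs they were 0.10 ± 0.15 and -0.11 ± 0.15. The 95% intervals ran from -0.02 to 0.64 in WT BMDCs and from -0.27 to 0.47 in WT BMDMs. Scaled by library totals, the sign turned in both BMDC genotypes (-0.05 and -0.04) and in WT BMDMs (-0.41).

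Gclc (chromosome 9, 77754535 to 77794485, plus strand), the catalytic subunit of the ligase that limits glutathione synthesis, had the largest fall among the 10 in WT BMDMs. It went from 23.5 and 19.5 FPKM in the controls to 6.29 and 9.10 FPKM with DMXAA, while in CRE BMDMs it went from 22.4 and 22.7 FPKM to 17.8 and 16.9 FPKM. The treated WT libraries lay far below every other BMDM library numbered 1 or 2. The log2 fold change was -1.59 ± 0.20 in WT (adjusted p = 0.00133, a ratio of 0.333) and -0.40 ± 0.19 in CRE (adjusted p = 0.234). The WT fall passed without any of the 4 libraries compared and under each alternative other than the fit of all 12 BMDM libraries (-1.10, adjusted p = 0.609). In BMDCs Gclc was at 6.24, 8.68 and 9.53 FPKM in WT controls and 4.36, 4.95 and 6.12 FPKM with DMXAA, and at 10.6, 17.3 and 8.10 FPKM in CRE controls and 5.75, 9.05 and 4.95 FPKM with DMXAA. It was lower with DMXAA in 6 of 6 same-numbered pairs. The log2 fold changes of -0.69 ± 0.31 (adjusted p = 0.117) and -0.89 ± 0.31 (adjusted p = 0.0554) did not pass, although the CRE value did under DESeq2 (adjusted p = 0.0288), and with the replicate block they were -0.68 (adjusted p = 0.00125) in WT and -0.87 (adjusted p = 0.000387) in CRE.

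Gclm (chromosome 3, 122245557 to 122270732, plus strand), the modifier subunit of the same ligase, fell less. In WT BMDMs it was at 60.1 and 45.5 FPKM in the controls and 41.1 and 33.0 FPKM with DMXAA, a log2 fold change of -0.62 ± 0.16 (adjusted p = 0.0231), and in CRE BMDMs it was at 55.2 and 57.6 FPKM and at 53.0 and 53.2 FPKM, a change of -0.11 ± 0.16 (adjusted p = 0.707). The call in WT was lost without WT CT number 1 (-0.41, adjusted p = 0.0702) or WT DX number 2 (-0.48, adjusted p = 0.0792). In WT BMDCs it went from 15.1, 24.7 and 28.9 FPKM to 10.3, 18.6 and 15.3 FPKM, and in CRE BMDCs from 29.2, 36.3 and 25.4 FPKM to 15, 34.1 and 18.02 FPKM. The groups overlapped in both genotypes although all 6 same-numbered pairs went down. Without the block the falls did not pass (adjusted p = 0.178 and 0.377), and with the replicate block they did, at -0.65 (adjusted p = 0.00897) in WT and -0.54 (adjusted p = 0.025) in CRE.

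Gsr (chromosome 8, 33652523 to 33698163, plus strand), glutathione reductase, was at 32.3 and 36.2 FPKM in WT BMDM controls and at 12.8 and 23.5 FPKM with DMXAA. In CRE BMDMs it was at 28.6 and 27.6 FPKM in controls and at 16.8 and 17.7 FPKM with DMXAA. The treated libraries were thus below the controls under both genotypes, and the log2 fold change was -1.02 ± 0.27 in WT (adjusted p = 0.0245) and -0.73 ± 0.27 in CRE, the latter short of the threshold (adjusted p = 0.143). Without WT CT number 2 the WT fall was -0.90 (adjusted p = 0.0717). In BMDCs, Gsr went from 35.3, 30.2 and 35.2 FPKM to 31.5, 27.1 and 25.7 FPKM in WT (-0.28 ± 0.25, adjusted p = 0.446) and from 38.6, 49.9 and 29.4 FPKM to 26.9, 47.5 and 24.8 FPKM in CRE (-0.28 ± 0.25, adjusted p = 0.482). Without CRE DX number 2 the CRE change was -0.62 and passed (adjusted p = 0.0441).

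Slc7a11 (chromosome 3, 49892526 to 50443614, minus strand), the cystine importer that feeds glutathione synthesis, went the other way from the ligase subunits. WT BMDCs went from 9.70, 14.6 and 16.1 FPKM to 20.8, 33.5 and 36.7 FPKM with DMXAA, and CRE BMDCs from 16.9, 18.8 and 14.5 FPKM to 41.1, 22.4 and 31.9 FPKM. Treated and control libraries did not overlap under either genotype, with log2 fold changes of 1.15 ± 0.29 in WT (adjusted p = 0.0105) and 0.90 ± 0.29 in CRE (adjusted p = 0.0404). The WT rise passed without any 1 of the compared libraries, and the CRE rise was lost in 4 of the 6 refits, without CRE CT number 1 (adjusted p = 0.1), CRE DX number 1 (0.67, adjusted p = 0.151), CRE CT number 3 (adjusted p = 0.132) or CRE DX number 3 (adjusted p = 0.087), and also with the stricter filter on low values (adjusted p = 0.0618). Scaled by library totals, the rises were 0.79 (adjusted p = 0.062) and 0.57 (adjusted p = 0.169). In BMDMs numbered 1 and 2 the gene was near the filter of 1 FPKM, although 219 to 1322 counts a library were held over its length of 13922 bases. It was at 0.770 and 4.06 FPKM in WT controls and 2.75 and 6.57 FPKM with DMXAA. In CRE it was at 1.11 and 0.999 FPKM in controls and 1.79 and 1.85 FPKM with DMXAA. It was higher with DMXAA in 4 of 4 same-numbered comparisons, which were not taken as pairs in BMDMs. The WT change was 0.84 ± 0.73 (95% interval -0.89 to 2.56, adjusted p = 0.414). It ranged from 0.05, without WT DX number 2, to 2.52, without WT CT number 2 (adjusted p = 0.0137), and also passed with no filter on low values (adjusted p = 0.0106) and with a block within genotype (1.11, adjusted p = 0.0149).

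Prdx1 (chromosome 4, 116685544 to 116700822, plus strand), a peroxiredoxin that reduces hydrogen peroxide, was the most abundant of the 10 in each group over the libraries tested, and rose the most in WT BMDMs. It went from 572 and 970 FPKM in WT BMDM controls to 1718 and 2103 FPKM with DMXAA, and from 1212 and 1199 FPKM in CRE controls to 1745 and 1912 FPKM. The treated libraries of the 2 genotypes overlapped, while the CRE controls were above both WT controls. The log2 fold change was 1.196 ± 0.26 in WT (adjusted p = 0.0115) and 0.58 ± 0.26 in CRE (adjusted p = 0.207), and the WT value on library totals was 0.70 (adjusted p = 0.0544). In BMDCs Prdx1 went from 409, 426 and 563 FPKM to 840, 1193 and 917 FPKM in WT, and from 555, 1105 and 490 FPKM to 852, 1596 and 1208 FPKM in CRE. The WT groups did not overlap, whereas in CRE the control numbered 2 lay above the treated library numbered 1. The rise was 1.05 ± 0.33 in WT (adjusted p = 0.0294) and 0.74 ± 0.33 in CRE (adjusted p = 0.123), and in CRE it was 0.79 (adjusted p = 0.00584) with the replicate block and 0.96 (adjusted p = 0.0189) without the libraries numbered 2. The WT call was lost in 4 of 6 refits that left out 1 library (WT CT number 1 or 2, WT DX number 2 or 3, adjusted p = 0.0565 to 0.0984) and on library totals (0.69, adjusted p = 0.104).

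Txnrd1 (chromosome 10, 82833951 to 82897712, plus strand), thioredoxin reductase, fell in WT BMDMs from 59.6 and 64.8 FPKM to 35.0 and 52.3 FPKM (-0.62 ± 0.20, adjusted p = 0.0459), and in CRE BMDMs it went from 59.3 and 58.9 FPKM to 50.3 and 47.6 FPKM (-0.29 ± 0.20, adjusted p = 0.38). The WT call was lost without WT CT number 1 (adjusted p = 0.0687), WT DX number 1 (-0.35, adjusted p = 0.0873) or WT CT number 2 (adjusted p = 0.124), and with median-of-ratios scaling (-0.55, adjusted p = 0.0623). In BMDCs it was at 31.0, 35.2 and 41.2 FPKM in WT controls and 37.5, 35.6 and 46.9 FPKM with DMXAA, and at 41.3, 47.2 and 35.1 FPKM in CRE controls and 47.4, 46.8 and 38.9 FPKM with DMXAA. Groups overlapped and the changes of 0.14 ± 0.18 and 0.08 ± 0.18 did not pass, with 95% intervals from -0.26 to 0.53 and from -0.31 to 0.47. Both were of the opposite sign on library totals.

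Srxn1 (chromosome 2, 152105516 to 152111376, plus strand), sulfiredoxin, repairs over-oxidised peroxiredoxins. It was at 69.5 and 92.1 FPKM in WT BMDM controls and 64.0 and 76.2 FPKM with DMXAA, and at 102 and 97.8 FPKM in CRE controls and 114 and 107 FPKM with DMXAA. The response did not pass under either genotype (-0.32 ± 0.17, adjusted p = 0.2, and 0.12 ± 0.17, adjusted p = 0.698). In WT the fall passed on library totals (-0.82, adjusted p = 0.00973), without WT CT number 1 (-0.51, adjusted p = 0.0393) and with a block within genotype (-0.31, adjusted p = 0.0255). In BMDCs it was at 39.9, 44.3 and 54.3 FPKM in WT controls and 42.6, 46.7 and 48.3 FPKM with DMXAA, and at 52.9, 70.6 and 42.0 FPKM in CRE controls and 51.5, 72.3 and 48.2 FPKM with DMXAA. The BMDC changes were -0.03 ± 0.22 and 0.03 ± 0.22, with 95% intervals from -0.51 to 0.44 and from -0.45 to 0.51.

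Hmox1 (chromosome 8, 75093621 to 75100589, plus strand), the inducible haem oxygenase, had responses of opposite sign under the 2 genotype labels in BMDMs, of which the WT fall passed. It went from 342 and 561 FPKM to 215 and 312 FPKM with DMXAA in WT, and from 354 and 365 FPKM to 439 and 459 FPKM in CRE. The log2 fold change was -0.89 ± 0.28 in WT (adjusted p = 0.0416) and 0.30 ± 0.27 in CRE (adjusted p = 0.529), and the difference between them was 1.19 ± 0.39 (adjusted p = 0.153), so a difference in response was not called by edgeR (DESeq2 gave 1.12, adjusted p = 0.0482). The WT fall was lost without WT DX number 1 (-0.63, adjusted p = 0.174) or WT CT number 2 (-0.45, adjusted p = 0.156) and was marginal with median-of-ratios scaling (-0.82, adjusted p = 0.0507). In BMDCs Hmox1 was at 171, 160 and 189 FPKM in WT controls and 121, 160 and 112 FPKM with DMXAA (-0.43 ± 0.38, adjusted p = 0.455, and -0.44, adjusted p = 0.0478, with the replicate block). CRE BMDCs were at 180, 368 and 166 FPKM and at 116, 336 and 159 FPKM (-0.25 ± 0.38, adjusted p = 0.709), where the library numbered 2 held the high value in each group.

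Nqo1 (chromosome 8, 107388225 to 107403206, minus strand), a quinone reductase, varied more between libraries than with treatment. WT BMDMs were at 4.26 and 20.4 FPKM in the controls and at 3.19 and 9.94 FPKM with DMXAA, and CRE BMDMs at 6.16 and 5.22 FPKM and at 5.93 and 4.63 FPKM. The high value of each WT pair belonged to the library numbered 2, which carried the fibroblast markers given above, and Slc7a11 was also higher in it, and the part of those markers in either gene was not tested. The WT change of -1.02 had an SE of 0.77 (adjusted p = 0.346). In BMDCs Nqo1 was at 10.1, 13.02 and 18.5 FPKM in WT controls and 8.05, 11.8 and 13.7 FPKM with DMXAA, and at 17.0, 33.9 and 14.8 FPKM in CRE controls and 11.5, 30.6 and 12.9 FPKM with DMXAA. It was lower with DMXAA in 6 of 6 same-numbered BMDC pairs, and neither BMDC change passed (-0.34 ± 0.43 and -0.28 ± 0.42, adjusted p = 0.618 and 0.7). In BMDMs numbered 1 and 2 it was lower in 4 of 4 same-numbered comparisons, which were not taken as pairs.

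**Figure D2:**
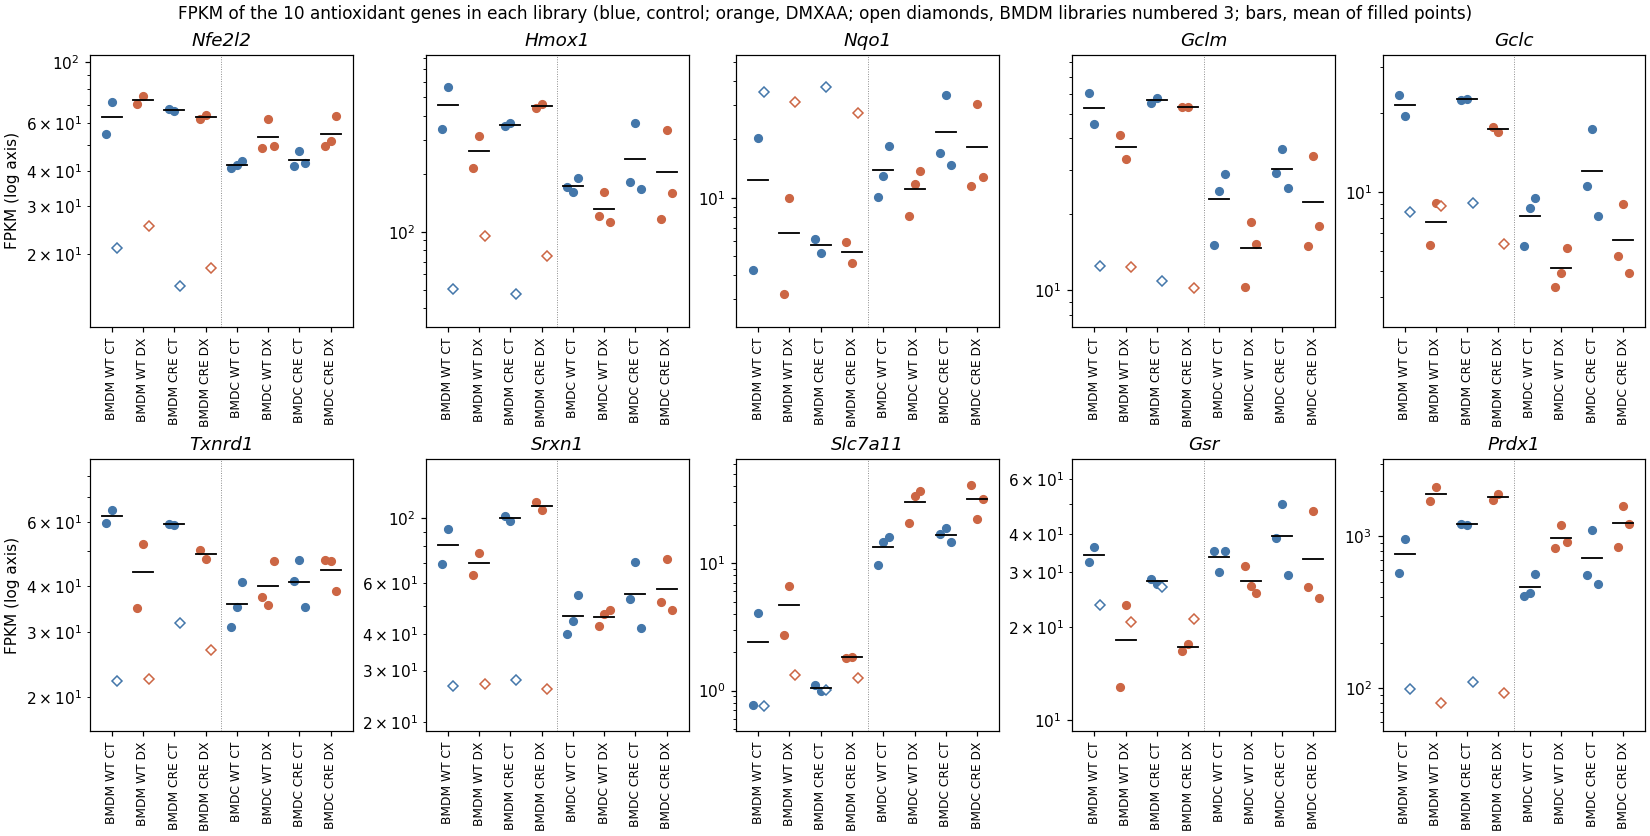
FPKM (log axis) of each gene in the 24 libraries, by group, with controls in blue and DMXAA in orange. Filled points are the libraries of the tests and bars their mean, and open diamonds are the BMDM libraries numbered 3, where Prdx1 was at 80.0 to 110 FPKM against 572 to 2103 in the other BMDM libraries and Nqo1 at 27.4 to 37.1 against 3.19 to 20.4.

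**Figure D3:**
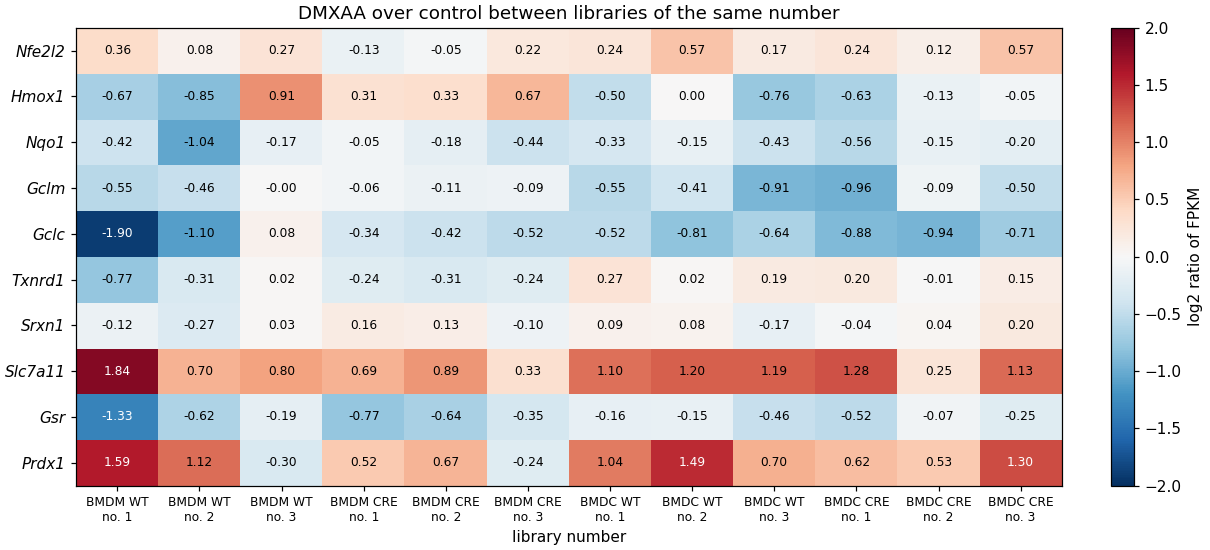
Log2 ratio of FPKM, DMXAA over control, between libraries of the same number (columns) for each gene (rows), with red for higher and blue for lower. Gclc was lower in all 6 BMDC columns and Slc7a11 higher in all 12 columns, and Prdx1 was higher in 10 columns and lower in the 2 of the BMDM libraries numbered 3.

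The comparison of CRE with WT under DMXAA set cells with the Cre beside cells without it. In BMDMs, 2 members were higher in CRE, Gclc at 17.8 and 16.9 FPKM against 6.29 and 9.10 FPKM in WT, and Srxn1 at 114 and 107 FPKM against 64.0 and 76.2 FPKM, and none was lower (background 9.26% higher and 9.99% lower). The CRE values lay above both WT values for each gene. The log2 differences were 1.22 ± 0.20 for Gclc (adjusted p = 0.00871) and 0.70 ± 0.18 for Srxn1 (adjusted p = 0.0355). Gclm (0.57 ± 0.16, adjusted p = 0.053) and Hmox1 (0.81 ± 0.28, adjusted p = 0.0867) were also higher in both CRE libraries than in both WT libraries without passing, and passed with DESeq2 (adjusted p = 0.0349 and 0.034) and on library totals (0.81, adjusted p = 0.0128, and 1.04, adjusted p = 0.0432). Neither Gclc nor Srxn1 passed when CRE DX number 1 (adjusted p = 0.0788 and 0.203) or number 2 (adjusted p = 0.0699 and 0.152) was left out, Srxn1 did not without WT DX number 1 (0.57, adjusted p = 0.115), and none of the 10 passed in the fit of all 12 BMDM libraries.

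In untreated BMDMs no member differed between CRE and WT (0 at an unadjusted p under 0.05, 0 by DESeq2), where 0.0432% of genes passed. Gclc there was 0.03 ± 0.19 (95% interval -0.42 to 0.49) and Prdx1 0.60 ± 0.26 (adjusted p = 0.714). The difference in DMXAA response between the genotypes, the interaction, was 1.18 ± 0.27 for Gclc (adjusted p = 0.0709) and 1.19 ± 0.39 for Hmox1, and no member passed (2 at an unadjusted p under 0.05), against 3.66% of genes. Both passed with DESeq2 (adjusted p = 0.00706 for Gclc and 0.0482 for Hmox1) and in edgeR with no filter on low values (adjusted p = 0.00164 and 0.0013) or with a block within genotype (adjusted p = 0.0377 and 0.00652), so the call depends on the tool, the filter and the block. Leaving out WT DX number 2 gave Gclc at 1.49 (adjusted p = 0.0125) and WT CT number 2 gave 1.28 (adjusted p = 0.042), leaving out WT CT number 1 gave Hmox1 at 1.49 (adjusted p = 0.047), and Prdx1 passed without WT CT number 2 (-1.09, adjusted p = 0.0294) and Gsr without WT DX number 2 (0.81, adjusted p = 0.0444).

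In BMDCs no member was called different between CRE and WT, with or without DMXAA, nor in its response (0 at an unadjusted p under 0.05 and 0 by DESeq2 in each of these comparisons), and 0% of the 12126 genes passed under DMXAA, 0% in controls and 0% in the interaction. In both treatments CRE number 1 with WT number 3, and CRE number 3 with WT number 2, correlated at 0.9956 to 0.9959. Libraries of the same genotype and treatment reached at most 0.9905. With libraries this close across labels, the lack of calls does not show that the genotypes were alike. The estimates were above 0 for 10 of 10 members in both conditions, with medians of 0.37 in controls and 0.32 under DMXAA. Over all genes tested the medians were 0.006 and 0.0095. The 10 genes were read in the same libraries, so their signs are not separate observations. Without the CRE libraries numbered 2 the medians of the 10 were 0.14 and 0.10. Without WT CT number 1 the control median was 0.22, and without WT DX number 1 the DMXAA median was 0.25, with 8 of 10 above 0. The largest estimates under DMXAA were for Nqo1 (0.71 ± 0.43), Hmox1 (0.64 ± 0.39) and Gclm (0.60 ± 0.35), which without those libraries were 0.13, 0.08 and 0.16. CRE number 2 also held fewer macrophage markers and more neutrophil markers, at 151 and 352 CPM against 10.7 to 31.6 in the other BMDCs, and their part in the estimates was not tested.

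Slc7a11 was higher in BMDCs than in BMDMs in both conditions. Of the other members, 6 passed as lower in BMDCs in the controls and 2 under DMXAA. Under DMXAA, 7 of the 10 had an unadjusted p under 0.05 in edgeR and DESeq2 called 6. The smaller count there does not show that the differences were lost. In untreated WT cells Slc7a11 was higher in BMDCs (9.70 to 16.1 FPKM against 0.770 and 4.06 FPKM), and 6 members were lower, Gclc, Hmox1, Gclm, Srxn1, Txnrd1 and Nfe2l2, with 13.1% of 13368 genes higher and 15.4% lower. The log2 difference was 2.42 ± 0.55 for Slc7a11 (adjusted p = 0.00357), -1.45 ± 0.30 for Gclc (adjusted p = 0.00168), -1.44 ± 0.39 for Hmox1 (adjusted p = 0.011) and -1.26 ± 0.33 for Gclm (adjusted p = 0.00897). The Slc7a11 difference passed in all 5 refits that left out 1 library and ranged from 1.69, without WT BMDM CT number 1, to 4.11, without WT BMDM CT number 2. The other 3 genes that were lower had differences of -0.86 for Srxn1, -0.85 for Txnrd1 and -0.64 for Nfe2l2. Gsr did not pass (-0.09 ± 0.28, 95% interval -0.68 to 0.50). Without the WT BMDM library numbered 2, Nfe2l2, Hmox1 and Srxn1 no longer passed (adjusted p = 0.149, 0.161 and 0.13), and without number 1 Gclm did not (adjusted p = 0.0959).

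Under DMXAA, Slc7a11 was again higher in WT BMDCs (2.75 ± 0.56, adjusted p = 0.00157), and Gclm (-1.27 ± 0.33, adjusted p = 0.00855) and Prdx1 (-0.91 ± 0.33, adjusted p = 0.0494) were lower, with 15.3% of genes higher and 15.3% lower. Prdx1 lost its call without any of 4 libraries (WT BMDM DX number 1 or 2, WT BMDC DX number 1 or 3, adjusted p = 0.0903 to 0.218), and Gclm without BMDM DX number 1 (adjusted p = 0.0713). No member passed the test that its DMXAA response differed between the cell types (2 at an unadjusted p under 0.05, 0 by DESeq2), against 2.61% of genes, and the nearest was Txnrd1, at 0.78 ± 0.27 (adjusted p = 0.166). With the replicate block within cell type and genotype, which also blocks the BMDM numbers that were not taken as pairs, 3 members passed, all with the more positive response in BMDCs, against 5.03% of genes in that direction and 5.92% in the other. They were Txnrd1 (0.80, adjusted p = 0.0108), Gclc (0.94, adjusted p = 0.0198) and Gsr (0.82, adjusted p = 0.037). Culture conditions and cell type cannot be told apart in this comparison.

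**Figure D4:**
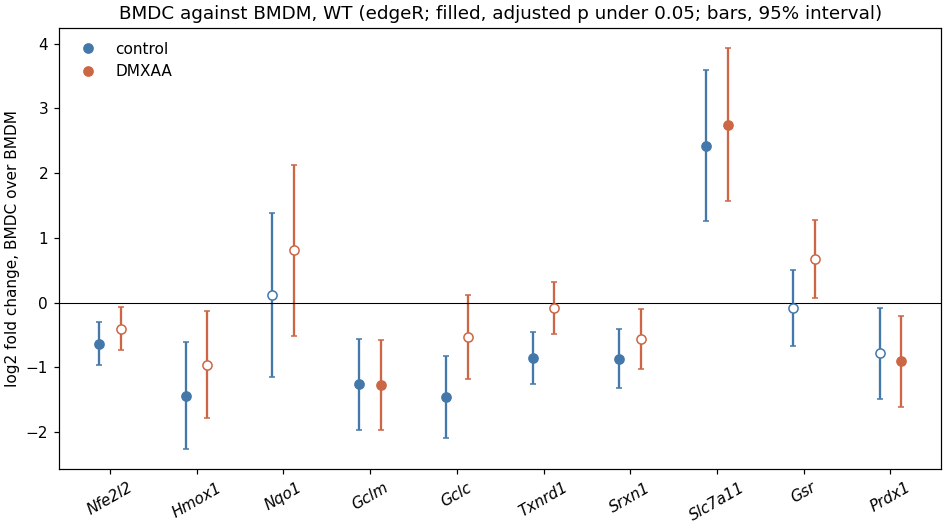
Log2 fold change of WT BMDCs over WT BMDMs (vertical axis) for each gene in controls (blue) and under DMXAA (orange), with 95% intervals from edgeR and filled points for an adjusted p under 0.05. Slc7a11 is the gene far above 0 in both conditions, at 2.42 and 2.75.

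Prdx1 and Hmox1 were the top 2 genes in each group. In WT BMDM controls they had mean FPKM of 771 and 451, followed by Srxn1 (80.8), Nfe2l2 (63.2), Txnrd1 (62.2) and Gclm (52.8), each of which overlapped its neighbour, and then by Gsr (34.3), Gclc (21.5), Nqo1 (12.3) and Slc7a11 (2.42). In WT BMDC controls the order began with Prdx1 (466), Hmox1 (173), Srxn1 (46.2), Nfe2l2 (42.3), Txnrd1 (35.8) and Gsr (33.6), where the last 4 overlapped their neighbours, and closed with Gclm (22.9), Nqo1 (13.9), Slc7a11 (13.5) and Gclc (8.15). Gclc overlapped Nqo1 in the BMDMs, and Gclm, Nqo1 and Slc7a11 overlapped their neighbours in the BMDCs. Slc7a11 was thus last in WT BMDM controls and above Gclc in WT BMDC controls, with no overlap with its neighbour in the former or with Gclc in the latter.

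The BMDM libraries numbered 3 had another profile of these genes. In the WT control of that number Prdx1 was at 98.8 FPKM, 12.8% of the mean of numbers 1 and 2, Hmox1 at 50.6 FPKM (11.2%), Gclm at 12.4 FPKM (23.6%) and Nfe2l2 at 21.1 FPKM (33.3%), while Nqo1 was at 35.2 FPKM (285%). Over the 4 groups Nqo1 was above, and Nfe2l2, Hmox1, Gclm, Txnrd1, Srxn1 and Prdx1 below, both other libraries of the group. The log2 ratio of DMXAA over control between these libraries, with 1 library a condition and no test, was 0.91 in WT and 0.67 in CRE for Hmox1, -0.30 and -0.24 for Prdx1, 0.08 and -0.52 for Gclc and 0.80 and 0.33 for Slc7a11. Hmox1 and Prdx1 therefore went against their direction in WT numbers 1 and 2. In these libraries 4 or 5 of the 8 dendritic cell markers and up to 4 of the 6 pan-leukocyte markers were at 0.

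The genes around the 10 were read from a list of 53 others of the pathway, of which 50 were tested. In WT BMDMs 9 rose and 13 fell with DMXAA, in CRE BMDMs 4 rose and 4 fell, in WT BMDCs 9 rose and 3 fell, and in CRE BMDCs 8 rose and 2 fell, with medians of -0.04, 0.00, -0.02 and 0.02 on the log2 scale. Over all genes tested the shares that rose and fell were 18.4% and 20.7%, 7.28% and 2.72%, 17.0% and 15.2%, and 14.0% and 11.4%. The CRE BMDM calls did not hold when any 1 of the 4 CRE BMDM libraries was left out. Such a refit leaves 1 library in that group and gives the looser WT pairs more weight in the shared spread. The estimates moved less, at 0.98 to 1.06 for Hmox2, 1.47 to 1.52 for Sesn2 and -0.93 to -0.74 for Txnrd2. No gene of the list passed in either BMDM response with all 12 libraries. Keap1, the inhibitor of NRF2, rose in all 4 responses, by 2.13 ± 0.17 in WT and 1.27 ± 0.17 in CRE BMDMs and by 1.46 ± 0.18 and 1.51 ± 0.18 in WT and CRE BMDCs (adjusted p = 0.000223, 0.00553, 0.000123 and 0.000131). In CRE BMDMs the refits without 1 library gave 1.25 to 1.29, none of them called. In WT BMDMs that was a rise from 9.09 and 10.5 FPKM to between 39.0 and 53.7 FPKM. Mafk, a small MAF partner, rose in WT BMDMs (2.14 ± 0.40) and in both BMDC groups (2.16 ± 0.23 and 1.802 ± 0.22). Sqstm1, the autophagy adaptor that binds KEAP1, rose in WT and CRE BMDCs (1.38 ± 0.23 and 1.04 ± 0.23) and did not pass in BMDMs (0.66 ± 0.43 and 0.97 ± 0.43), where the WT control numbered 2 was at 461 FPKM and number 1 at 160.

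Bach1, the repressor that competes with NRF2, rose in WT BMDMs from 13.1 and 13.5 FPKM to 30.01 and 31.9 FPKM (1.11 ± 0.11, adjusted p = 0.000453), and was at -0.17 ± 0.21 in WT BMDCs (adjusted p = 0.593). Its response differed between the cell types by -1.26 ± 0.27 (adjusted p = 0.0218), and this was lost on library totals (adjusted p = 0.0758) and with all 12 BMDM libraries. Sod2, the mitochondrial superoxide dismutase, rose from between 9.43 and 14.4 FPKM to between 46.0 and 52.9 FPKM in WT BMDMs (1.94 ± 0.22), and CRE BMDMs under DMXAA were at 9.45 and 10.4 FPKM (-2.27 ± 0.22 against WT, adjusted p = 0.00176). Its response differed between the genotypes by -1.69 ± 0.30 (adjusted p = 0.0374). With 1 library left out the difference ranged from -2.06 to -1.42. The call did not hold in all of those refits, nor with all 12 BMDM libraries. Among the enzymes that supply NADPH, Idh1 fell in all 4 responses (-2.004 in WT and -1.01 in CRE BMDMs, -2.13 in WT and -1.62 in CRE BMDCs), with the CRE BMDM value at -1.07 to -0.97 and not called in the refits without 1 library. Osgin1 fell in WT BMDMs (-1.27 ± 0.29) and in both BMDC groups (-1.51 ± 0.36 and -1.30 ± 0.36). Its call was lost in 1 of 4 refits without 1 library in WT BMDMs and in 3 of 6 in CRE BMDCs. The glutathione conjugate exporter Abcc1 fell in WT and CRE BMDMs (-1.40 ± 0.14 and -0.68 ± 0.14), with the CRE call lost in 4 of 4 refits. The pentose phosphate enzyme Tkt fell in WT BMDCs (-0.66 ± 0.16).

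Under DMXAA, CRE BMDMs had 6 genes of the list higher and 7 lower than WT BMDMs, beside 9.26% and 9.99% of all genes. Without either CRE DX library 2 of these 13 calls were kept, and with all 12 BMDM libraries 0. Idh1 (1.57 ± 0.16), the haem transporter Slc48a1 (0.74 ± 0.10) and the biliverdin reductase Blvra (0.73 ± 0.14) were furthest above WT, and Sod2, the peroxiredoxin Prdx5 (-1.65 ± 0.24) and Mafk (-1.54 ± 0.40) furthest below, with Keap1 at -0.77 ± 0.16 (adjusted p = 0.0217) and Bach1 at -0.66 ± 0.11 (adjusted p = 0.00868). In the responses of CRE BMDMs the largest rises were those of Sesn2 (1.51 ± 0.31), Keap1 and Hmox2 (1.03 ± 0.14), and Txnrd2 fell (-0.83 ± 0.18), each of them lost in 4 of 4 refits without 1 library. Between the cell types, 6 genes of the list were higher and 16 lower in WT BMDCs in controls, and again 6 and 16 under DMXAA, beside 13.1% and 15.4% of all genes in controls and 15.3% and 15.3% under DMXAA. With all 12 BMDM libraries the counts were 4 and 1 in controls and 2 and 4 under DMXAA. Gsto1 (1.09 ± 0.24 in controls, 1.93 ± 0.25 under DMXAA) and Gss (1.62 ± 0.45 and 1.67 ± 0.46) were higher in both conditions, Sesn2 led in controls (1.71 ± 0.29) and Prdx6 was among the leaders under DMXAA (1.49 ± 0.21). The aldo-keto reductase Akr1b8 (-3.29 ± 0.39 and -2.90 ± 0.40) and the ferritin heavy chain Fth1 (-1.67 ± 0.23 and -1.49 ± 0.23) were lower in both, with Gstm1 in controls (-1.69 ± 0.29) and Bach1 under DMXAA (-1.89 ± 0.19). None of the 50 differed between the genotypes in BMDCs. The counts move with the processing, since on library totals the called genes of WT BMDMs were 6 higher and 23 lower and those of WT BMDCs 5 higher and 14 lower.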

How the data were processed

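RNA was isolated with TRIzol and made into polyA libraries (NEBNext Ultra kit), and the submitters' processing notes name CASAVA 1.8, fastp, HISAT2 2.0.5, featureCounts 1.5.0-p3 and DESeq2 1.20.0 with the builds GRCm38 and mm10. The strand setting is not given in the sources used here. The deposited table held raw counts per gene, and the authors also deposited FPKM values, whose effective library sizes equal DESeq2 size factors over the 24 libraries and ran from 0.687 to 1.33 times the library total. Columns of the authors' own comparisons (fold changes and p-values) were not used. Levels are the deposited FPKM and tests used the deposited counts. Of the per-library columns, 0 were left unmatched. Gene positions equalled those of the GENCODE annotation of GRCm38 for all 10 genes. Few reads of overlapping genes were counted, at most 35.7 counts a library on average at Txnrd1.

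The edgeR 4.0.16 quasi-likelihood test with TMM scaling was fitted to the 12 BMDC libraries, the 8 BMDM libraries numbered 1 and 2, or the libraries of both, on genes that reached 1 FPKM in 3 libraries or more (BMDC) or in 2 or more (the other fits), two-sided, with Benjamini-Hochberg adjustment over all genes tested and a threshold of 0.05. The SE was taken as the log2 fold change over the root of the F statistic. The script was tested on simulated data. The members and lists were chosen with earlier results of these data known. From the wider list, each comparison names the 3 largest rises and 3 largest falls among genes that passed with a mean of at least 5 FPKM, and always Keap1, Bach1 and Sqstm1. In BMDCs the deviations of same-numbered control and DMXAA libraries from their group means correlated at 0.417 to 0.692 within a genotype (6 of 6 pairs), so the numbers were taken as pairs there. Across genotypes they correlated down to -0.514, so numbers were not paired across labels. Alternatives were median-of-ratios scaling, no filter, a minimum of 5 FPKM, DESeq2 1.42.0, replicate blocks, all 12 BMDM libraries and leaving out each library. Library totals and leaving out the BMDC CRE or BMDM WT libraries numbered 2 were added after seeing the data.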

Additional observations from a re-analysis of the deposited data

Results flagged for a closer look

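In the regulators and enzymes around the 10 genes, 2 differences in response passed their own test. The DMXAA response of Sod2 in BMDMs differed between CRE and WT by -1.69 ± 0.30 on the log2 scale (edgeR adjusted p = 0.0374), with a range from -2.06 to -1.42 when 1 library was left out and a call lost in 5 of those 8 refits and in the fit of all 12 BMDM libraries. The DMXAA response of Bach1 in WT cells differed between BMDCs and BMDMs by -1.26 ± 0.27 (adjusted p = 0.0218), with a range from -1.54 to -1.16 and a call lost in 2 of 10 refits, with all 12 BMDM libraries (-1.15), on library totals (-1.12) and without the BMDM WT libraries numbered 2 (-1.34). No difference in response among the 10 genes passed in this fit.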

How the results depend on the processing

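Of the 10 genes, the number called moved most with the libraries. With all 12 BMDM libraries it was 0 for the WT BMDM response and for CRE against WT under DMXAA, and 1 for BMDCs against BMDMs in controls and 1 under DMXAA. Without the BMDM WT libraries numbered 2 it was 6 for the CRE BMDM response, whose groups keep 2 libraries each. That response is then judged by the spread of the CRE pairs alone, which agree closely. The number was 9 and 4 for CRE against WT in BMDMs with and without DMXAA, and 9 for the BMDM interaction. There the lone WT libraries are assumed to have the spread of the CRE pairs. For BMDCs against BMDMs in controls it was 4. In CRE against WT under that setting the sign turned for Nqo1 (0.79), Gsr (0.48) and Prdx1 (0.15) with DMXAA and for Slc7a11 (0.43) in controls, and the BMDM interaction of Sqstm1 turned to -0.60 (leaving out 1 library at a time it ranged from -0.69, without WT CT number 2, to 0.88, without WT CT number 1). With no filter the counts were 2 (CRE BMDC response), 2 (CRE BMDM response), 5 and 3 (CRE against WT in BMDMs with and without DMXAA), 2 (BMDM interaction) and 6 (BMDCs against BMDMs under DMXAA). DESeq2 gave 2 for the CRE BMDC response, 4 for CRE against WT in BMDMs under DMXAA, 2 for the BMDM interaction and 6 for BMDCs against BMDMs under DMXAA. That last count was 5 with median-of-ratios scaling, 5 with the stricter filter and 7 without the BMDC CRE libraries numbered 2, and the CRE BMDC response was 3 without them. Library totals gave 4 for CRE against WT in BMDMs under DMXAA. The counts of this section are given without the share of all genes called under the same setting, so they do not set the 10 genes apart. The wider list moved as well. For CRE against WT in BMDMs under DMXAA it had 6 genes higher and 7 lower in the main fit. It had 11 and 9 with no filter, 6 and 9 with DESeq2, and 12 and 4 on library totals.

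The replicate block within cell type and genotype gave 5 (WT) and 4 (CRE) for the BMDC responses, 2 for the CRE BMDM response, 3 for the BMDM interaction and 3 for the cell type interaction. A replicate block across labels gave 4 for CRE against WT in BMDMs under DMXAA and 6 for BMDCs against BMDMs under DMXAA. BMDM numbers were not taken as pairs (2 numbers only, r = 0.685 in WT and 0.0368 in CRE). Leaving out 1 library at a time, the counts ranged from 1 to 2 (WT BMDC response), 0 to 3 (CRE BMDC response), 4 to 5 (WT BMDM response), 0 to 3 (CRE against WT in BMDMs under DMXAA), 0 to 2 (BMDM interaction), 4 to 7 and 1 to 4 (BMDCs against BMDMs in controls and under DMXAA), and stayed at 0 for the others. The cause of these moves was not tested. Where a group is left with 1 library, that library is assumed to vary like the other groups.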
